A study of Homo sapiens with 16 samples.

Results

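CEP83 and 8 further genes of the centriole's distal end were followed through NORAD depletion in HCT116 cells, a human colorectal carcinoma line. The 9 genes were taken as a list: CEP83, CEP89, SCLT1, CEP164 and FBF1 encode proteins of the distal appendages, TTBK2 encodes the kinase that docks there, ODF2 encodes a scaffold protein of the mother centriole, and CCP110 and CEP97 encode the cap of the centriole's distal end. They are 9 of the 31496 genes to which the deposited transcripts could be assigned, and all 9 were among the 19836 genes whose counts were high enough to be tested. CEP83 was put on the list because it was lower in the knockdown libraries at every time, so its differences between knockdown and wild type are described here and carry no test. The other 8 genes, and all 9 in wild-type cells over time, were tested.

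The study asked how expression and splicing differ between wild-type and NORAD-depleted cells. NORAD is a long noncoding RNA, and it was depleted by CRISPR interference (CRISPRi), in which a catalytically dead Cas9 is brought to a gene to repress its transcription. PolyA RNA from 20000 to 50000 cells per sample was treated with DNase and sequenced as strand-specific libraries. Each group of the first time, 24 h, has 2 libraries, and each group of 48 h or 96 h has 3, in both knockdown (KD) and wild type (WT). The labels give the same treatment protocol, 0.5 µg/ml doxycycline, for every sample, WT included. A protocol given alike for all leaves it unclear whether WT cells were in fact treated. The labels do not say whether WT cells carry the CRISPRi machinery, nor whether replicates came from separate cultures. The p-values therefore rest on the spread among these libraries alone, and that spread may be technical. The KD groups are HCT116 with CRISPRi against NORAD at 24, 48 and 96 h, and the WT groups are HCT116 labelled wild type at the same times.

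Distal appendages are blade-like projections at the tip of the mother centriole, and they attach it to a membrane when a primary cilium forms. CEP83 lies at their base and is needed to recruit SCLT1, CEP89, CEP164 and FBF1. CEP164 in turn brings in TTBK2, and TTBK2 activity leads to removal of the CCP110-CEP97 cap, which otherwise keeps the axoneme from growing. ODF2 is needed for the appendages of the mother centriole, above all for the lower tier, the subdistal appendages.

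Total estimated counts were between 28391784 and 51853876 per library. NORAD itself was at 229.7 and 187.7 CPM (the count as a share of the TMM-scaled library size) in the KD libraries at 24 h, against 178.8 and 201.2 CPM in WT. At 48 h it was at 21.8, 18.1 and 24.8 CPM in KD, against 156.4, 154.8 and 162.3 CPM in WT, and at 96 h it was at 79.9, 72.7 and 66.2 CPM in KD, against 181.2, 183.7 and 183.4 CPM in WT. The log2 fold changes were 0.14 at 24 h (edgeR quasi-likelihood test with Benjamini-Hochberg adjustment, adjusted p = 0.523), -2.88 at 48 h (adjusted p = 1.27e-13) and -1.33 at 96 h (adjusted p = 5.25e-08). NORAD was thus not lower at 24 h, and the KD libraries of that time are called libraries labelled knockdown below. The 6 epithelial markers checked summed to 4202 to 6993 CPM in KD and 4746 to 8081 CPM in WT libraries, and all 6 were detected. Leukocyte markers summed to at most 1.29 CPM in any library and multiciliated-cell markers to at most 6.80 CPM. A KD library at 48 h, replicate 3, stood apart from the other 2 on the third principal component of all genes (-7.94, against 54.2 and 61.2).

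CEP83 (ENSG00000173588) was the gene with the largest difference of the 9 at every time. It lies on the minus strand at chr12:94306449-94459988 (GRCh38, GENCODE 29). At 24 h it stood at 0.416 and 0.550 CPM in the libraries labelled knockdown, against 9.07 and 10.28 CPM in WT. At 48 h it stood at 2.72, 2.90 and 1.94 CPM in KD, against 11.65, 9.82 and 11.28 CPM in WT. At 96 h it stood at 3.50, 3.10 and 3.06 CPM in KD, against 10.25, 9.30 and 10.55 CPM in WT. Every KD library was below every WT library at each time, and the highest KD library of all, at 96 h, was still below the lowest WT library of all, at 24 h. In estimated counts, the 24 h libraries held 14 and 23 in KD, against 241 and 281 in WT.

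As group means, CEP83 was at 0.483 ± 0.0953 CPM in the libraries labelled knockdown and 9.68 ± 0.851 CPM in WT at 24 h (SD, n = 2 each), which is 4.99% of the WT level. It was at 2.52 ± 0.510 CPM in KD and 10.92 ± 0.972 CPM in WT at 48 h (SD, n = 3 each), or 23.1%, and at 3.22 ± 0.242 CPM in KD and 10.03 ± 0.652 CPM in WT at 96 h (SD, n = 3 each), or 32.1%. The fitted log2 fold changes were -4.30 (SE 0.219), -2.10 (SE 0.143) and -1.64 (SE 0.139) at 24, 48 and 96 h. With any 1 library left out they stayed between -4.48 and -4.13, between -2.22 and -1.95, and between -1.70 and -1.60. These ranges describe the values on which CEP83 was chosen. The libraries labelled knockdown in which NORAD was not lower, those of 24 h, were the ones with the least CEP83. They also had more mitochondrial counts, 6.08 and 6.10% of the total, against 4.89 and 5.05% in WT, and the part of this in the CEP83 difference was not tested. In bulk RNA, fewer cells of a type and less RNA per cell cannot be told apart, here as in every result below.

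CEP83 also stood low among all genes and among its own pathway. By log2 fold change it ranked 25th, 67th and 115th from the most negative of 19836 genes at 24, 48 and 96 h. None of the 133 other tested centriole and cilium genes had a more negative value at any of the 3 times. For scale, 550 genes (2.77%) fell at all 3 times with an adjusted p under 0.05 at each, and 1446 (7.29%) had every KD library below every WT library at all 3 times. At a single time, 32.9% of genes had KD below WT without overlap at 24 h, 20.3% at 48 h and 15.6% at 96 h. These shares are given only for scale, since CEP83 was chosen on these contrasts.

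**Figure D1:**
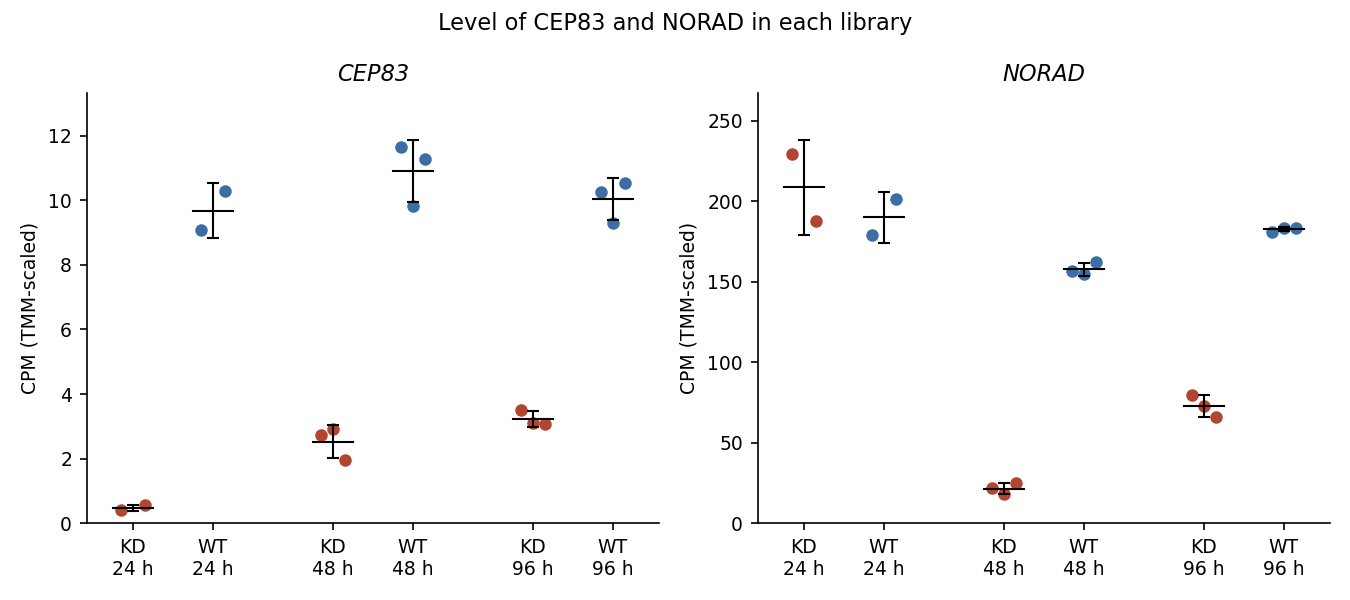
CEP83 (left) and NORAD (right) in CPM (TMM-scaled) in each library by group and time, with knockdown (KD, red) left of wild type (WT, blue). Lines and bars are means ± SD, 2 libraries per group at 24 h and 3 at 48 and 96 h: CEP83 in KD libraries reaches at most 3.50 CPM and in WT libraries is at least 9.07 CPM, while NORAD overlaps between KD and WT at 24 h.

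In WT cells CEP83 did not pass a test of change with time. The log2 change was 0.17 for 48 h against 24 h (adjusted p = 0.367), -0.12 for 96 h against 48 h (adjusted p = 0.476) and 0.05 for 96 h against 24 h (adjusted p = 0.819; edgeR quasi-likelihood test with Benjamini-Hochberg adjustment). Of all genes tested, 44.6%, 46.4% and 35.2% passed in these comparisons.

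The annotation gives 14 CEP83 transcripts in the deposited table. The main one, CEP83-201 (ENST00000339839), has 16 exons and encodes the full-length protein. A shorter one, CEP83-208 (ENST00000547575), has 9 exons and reads on from the end of exon 8 of CEP83-201 into the following intron for 1524 bases, where a stop codon begins 9 bases after the shared end. The sequences at this point are shown because these transcripts held unequal shares of the remaining CEP83 counts. In both, the lower-case letters are the last 15 bases that the transcripts share (chr12:94369922-94369936, GRCh38, minus strand, 5′ to 3′), and the capitals are the next 15 bases of each transcript. Those of CEP83-201 come from its next exon, at chr12:94368057-94368201, and those of CEP83-208 from the intron, with its stop codon, TGA, at chr12:94369911-94369913.
CEP83-201: aaagtgaactggatgGATTACAGTCAGACA
CEP83-208: aaagtgaactggatgGTAATATGTGATTTC

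CEP83-201 held 0 and 5 estimated counts in the libraries labelled knockdown at 24 h, against 134 and 151 in WT. It held 26, 0 and 20 in KD at 48 h, against 194, 155 and 223 in WT, and 89, 49 and 44 in KD at 96 h, against 242, 268 and 278 in WT. All KD libraries were below all WT libraries. CEP83-208 held 10 and 16 in the libraries labelled knockdown at 24 h, against 37 and 60 in WT, 54, 57 and 17 in KD at 48 h, against 90, 99 and 69 in WT, and 26, 31 and 31 in KD at 96 h, against 104, 72 and 68 in WT. It too was lower in every KD library than in the WT libraries of the same time.

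The short transcript made up a larger share of the CEP83 counts in the libraries labelled knockdown at 24 h. There CEP83-208 was 71.4% (95% exact binomial interval 41.9 to 91.6%) and 69.6% (47.1 to 86.8%) of CEP83 counts in the libraries labelled knockdown, against 15.4% (11.0 to 20.5%) and 21.4% (16.7 to 26.6%) in WT. At 48 h it was 47.8, 45.2 and 24.6% in KD, against 23.4, 27.3 and 16.9% in WT, and at 96 h it was 18.2, 25.0 and 26.5% in KD, against 21.2, 15.6 and 15.5% in WT. The shares of CEP83-208 did not overlap at 24 h and overlapped at 48 and 96 h. No rate of such separation over all transcripts is given for scale. For CEP83-211, annotated as a retained intron, the ratio to the rest of the gene differed more at the later times. The gene as a whole was lower in KD, so a higher ratio is not by itself a higher level. The log2 ratio of CEP83-211 to the rest of the gene, KD minus WT, was 0.81 (SE 0.83), 3.42 (SE 0.68) and 2.13 (SE 0.68) at 24, 48 and 96 h. At 24 h it rests on gene sums of only 14 and 23 counts in the libraries labelled knockdown. For CEP83-208 the values were 3.34 (SE 0.49), 1.14 (SE 0.40) and 0.53 (SE 0.40). These ratios carry no test. Of the 14 transcripts, 9 were at 0 in both libraries labelled knockdown at 24 h, and 1 was at 0 in every library. The intervals cover counting error only and treat estimated counts as reads, and the assignment of reads between transcripts that share most of their sequence adds an error that the files do not give.

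**Figure D2:**
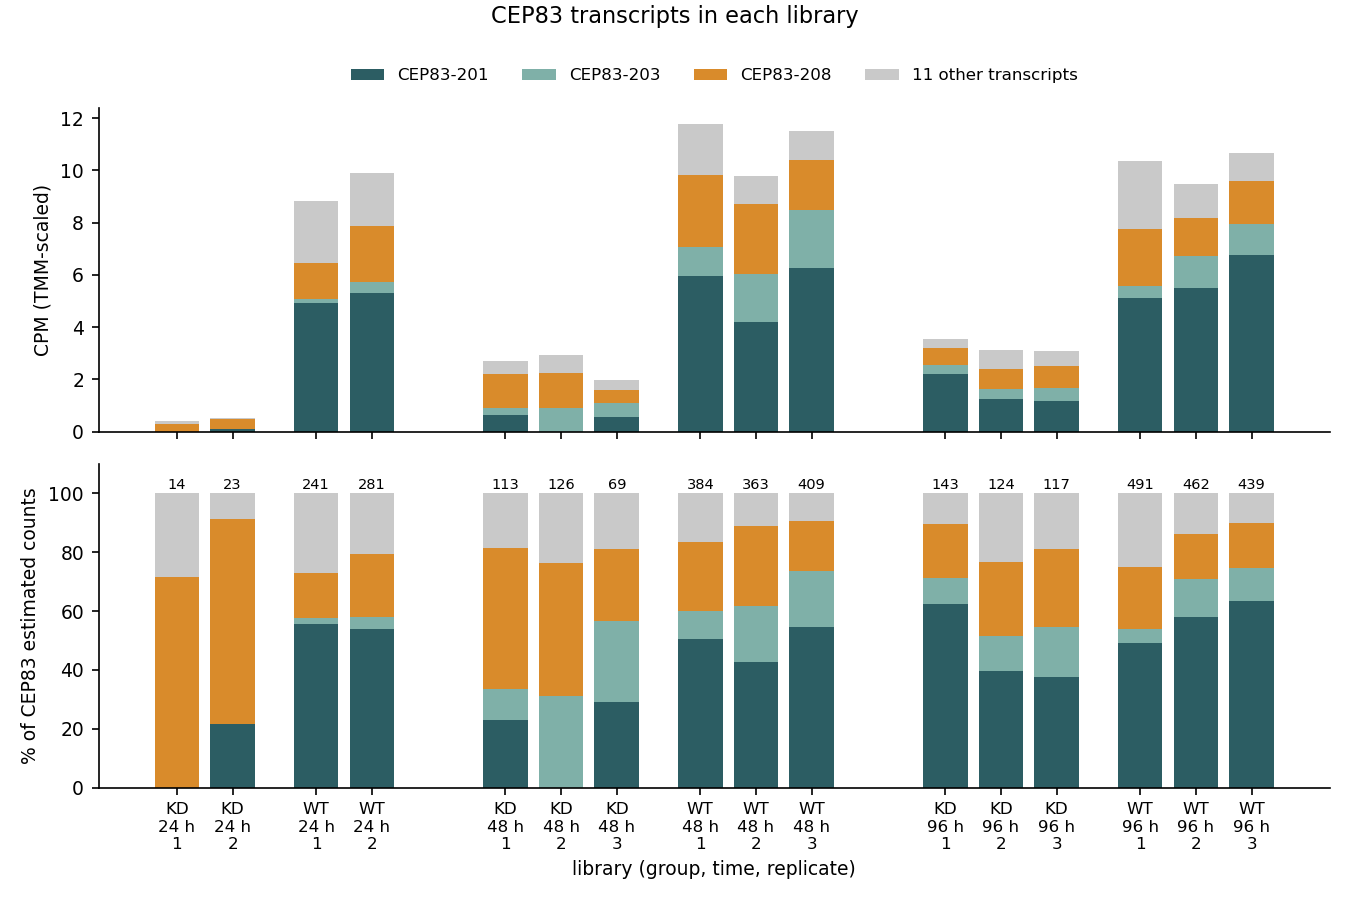
CEP83 transcripts in each library, stacked, with KD left of WT at each time. The upper panel gives CPM scaled over transcripts, and the lower panel the percent of the gene's estimated counts with the gene's count above each bar: CEP83-208 takes 71.4 and 69.6% of only 14 and 23 counts in the KD libraries at 24 h, against 15.4 and 21.4% of 241 and 281 counts in WT.

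A further coding transcript, CEP83-203, has 17 exons and the same coding sequence as CEP83-201. It held 0 and 0 estimated counts in the libraries labelled knockdown at 24 h, against 5 and 12 in WT. In WT cells it rose at 48 h against 24 h (log2 change 2.49, SE 0.667, adjusted p = 0.0265, edgeR quasi-likelihood test over all transcripts with Benjamini-Hochberg adjustment; 8.10% of all transcripts tested rose). Its ratio to the other CEP83 transcripts rose as well (log2 change 2.46, adjusted p = 0.0391, limma; 11.2% of all transcripts tested for usage passed). It was the only transcript of the 9 genes that passed the usage test in that comparison, of 24 tested. Both calls were lost without WT replicate 1 or 2 at 24 h or WT replicate 2 or 3 at 48 h (adjusted p = 0.0531 to 0.200 for the level and 0.079 to 0.222 for the ratio). That on the ratio was also lost without either library labelled knockdown at 24 h, KD replicate 2 at 96 h or WT replicate 3 at 96 h (0.0506 to 0.055).

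RefSeq gives CEP83 more than 1 start, and the windows from 250 bases before to 50 bases after each start were read for all 9 genes (13 windows, GRCh38.p14). The window of the inner CEP83 start, at chr12:94459818-94460117 (minus strand), is shown beside those of CEP164, at chr11:117327604-117327903 (plus strand), and CCP110, at chr16:19523692-19523991 (plus strand), of which the first rose at 48 h and the second fell at 96 h (below). All run 5′ to 3′ along their gene, and capitals mark matches on either strand to TGACGT (the core of the cyclic AMP response element), CACGTG (the E-box), CCAAT (the CCAAT box) and GTTGCC (a repeat unit of the X-box that RFX factors bind).
CEP83: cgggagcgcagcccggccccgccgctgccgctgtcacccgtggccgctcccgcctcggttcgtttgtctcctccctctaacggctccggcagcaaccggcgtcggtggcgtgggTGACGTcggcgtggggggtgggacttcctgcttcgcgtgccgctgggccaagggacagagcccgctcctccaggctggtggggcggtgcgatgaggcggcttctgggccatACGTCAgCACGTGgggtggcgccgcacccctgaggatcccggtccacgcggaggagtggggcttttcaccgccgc
CEP164: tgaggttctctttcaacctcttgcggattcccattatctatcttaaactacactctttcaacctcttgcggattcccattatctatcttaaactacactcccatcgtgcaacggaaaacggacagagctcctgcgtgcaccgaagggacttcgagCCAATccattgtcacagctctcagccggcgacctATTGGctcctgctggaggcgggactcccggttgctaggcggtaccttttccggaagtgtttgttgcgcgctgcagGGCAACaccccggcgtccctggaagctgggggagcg
CCP110: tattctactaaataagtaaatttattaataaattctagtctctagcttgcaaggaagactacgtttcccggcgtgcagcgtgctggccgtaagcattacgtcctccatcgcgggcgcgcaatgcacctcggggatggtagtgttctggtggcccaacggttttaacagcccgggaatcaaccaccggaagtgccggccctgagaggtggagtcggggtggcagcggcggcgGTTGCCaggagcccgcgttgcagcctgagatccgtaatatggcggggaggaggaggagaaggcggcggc

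The GC content of the CEP83 window is 73.0%, and it holds 2 matches to TGACGT and 1 to CACGTG. The first of these strings, TGACGT, occurs in 8.0% of the 35116 promoter windows of the table, and in no other window of the 9 genes. CACGTG occurs in 7.3% of all windows and in those of CEP83 and ODF2. GTTGCC occurs in 12.2% of all windows and in 4 of the 13, those of CEP164, CCP110, CEP89 and CEP97, and CCAAT in 34.6% of all and in 8 of the 13. The CEP83 window shares 235 bases with that of a divergent noncoding gene, CEP83-DT, whose start lies 136 bases away on the other strand and which was not analysed here. A match is a string of letters, not a bound site.

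The neighbours of CEP83 on chromosome 12 were read in the same way. Within 500 kb, 25 genes are annotated, 10 are in the table and 6 were tested. AC073655.2 (ENSG00000258365), annotated as an antisense RNA, lies at chr12:94277758-94282844 on the minus strand, like CEP83, and 23.6 kb beyond the annotated end of CEP83, within the body of PLXNC1, which is transcribed the other way. It held 1 and 1 estimated counts in the libraries labelled knockdown at 24 h, against 15 and 8 in WT, 17, 11 and 9 in KD at 48 h, against 60, 46 and 58 in WT, and 8, 8 and 16 in KD at 96 h, against 35, 38 and 30 in WT. Every KD library was below the WT libraries of its time. The ratio of KD to WT was 0.0621 at 24 h (95% exact interval for counting error 0.0071 to 0.251), 0.199 at 48 h (0.135 to 0.286) and 0.363 at 96 h (0.236 to 0.545). The gene fell at all 3 times (adjusted p = 0.000751, 4.48e-05 and 0.0128, edgeR quasi-likelihood test with Benjamini-Hochberg adjustment), although at 96 h the call was lost without KD replicate 1 (adjusted p = 0.0654) or KD replicate 2 (adjusted p = 0.0801).

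Of the other 5 tested neighbours, PLXNC1, a semaphorin receptor that overlaps the end of CEP83 by 1227 bases on the opposite strand, fell at 48 h (log2 fold change -0.82, SE 0.249, adjusted p = 0.0147), a call lost without WT replicate 3 (adjusted p = 0.089). It held at most 88 estimated counts in a library, and whether counting used the strand is not given in the sources used here, so reads from the overlap cannot be told apart. NDUFA12, a mitochondrial complex I subunit gene, fell at 24 h (log2 fold change -0.31, adjusted p = 0.028) and at 48 h (-0.21, adjusted p = 0.0344), and both calls were lost under scaling by total counts. The 24 h call was also lost without any 1 of the 4 libraries of that time or WT replicate 2 at 48 h (adjusted p = 0.0879 to 0.279), and the 48 h call without KD replicate 1 or any 1 WT library of that time (0.0559 to 0.190). TMCC3, CRADD and AC012464.3, a long noncoding RNA gene with at most 17 counts in a library, did not pass at any time.

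The levels of the 9 genes can be set side by side per base of transcript, as TPM, from annotated lengths. In WT cells ODF2 was highest (26.8 to 41.7 TPM over the 8 WT libraries), and CEP89 (6.77 to 11.9 TPM), CEP164 (7.34 to 11.0 TPM) and FBF1 (4.53 to 10.9 TPM) followed with ranges that overlap. SCLT1 (3.57 to 6.39 TPM), CEP83 (3.96 to 6.20 TPM) and CCP110 (3.14 to 4.29 TPM) came next, again overlapping each other. The ranges of SCLT1 and CEP83 also overlap that of FBF1. TTBK2 (0.801 to 1.77 TPM) and CEP97 (0.378 to 1.20 TPM) were lowest, and their ranges overlap too. CEP83 was thus a gene of middle level in WT cells, in place 6, 6 and 5 of the 9 by mean at 24, 48 and 96 h. In KD libraries it was in place 9, 7 and 7, with 0.343 to 2.02 TPM over the 8 libraries.

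The changes that passed among the other 8 genes are too few to be set apart from the shares of all genes. Each of the 8 differed less than CEP83 at every time, but CEP83 was chosen for its fall. At 24 h 1 of 8 fell and 0 rose, against 12.4% and 5.14% of all genes tested. At 48 h 2 of 8 rose and 0 fell, against 14.8% and 18.5% of all genes, and at 96 h 1 of 8 fell and 0 rose, against 5.15% and 5.35%. The median log2 fold change of the 8 genes was -0.11, 0.13 and -0.13 at 24, 48 and 96 h, beside -0.02, 0.06 and -0.01 over all genes. KD and WT libraries did not overlap for 6 of the 8 at 24 h, 4 at 48 h and 3 at 96 h, where 59.7%, 37.3% and 31.8% of all genes did not. With 2 libraries a side, most genes did not overlap at 24 h. The scaling bears on these counts: of all genes called, 29.2% rose at 24 h and 44.4% at 48 h with TMM, against 75.4% and 68.9% with scaling by total counts, under which 0 of the 8 genes fell at 24 h and 4 rose at 48 h.

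**Figure D3:**
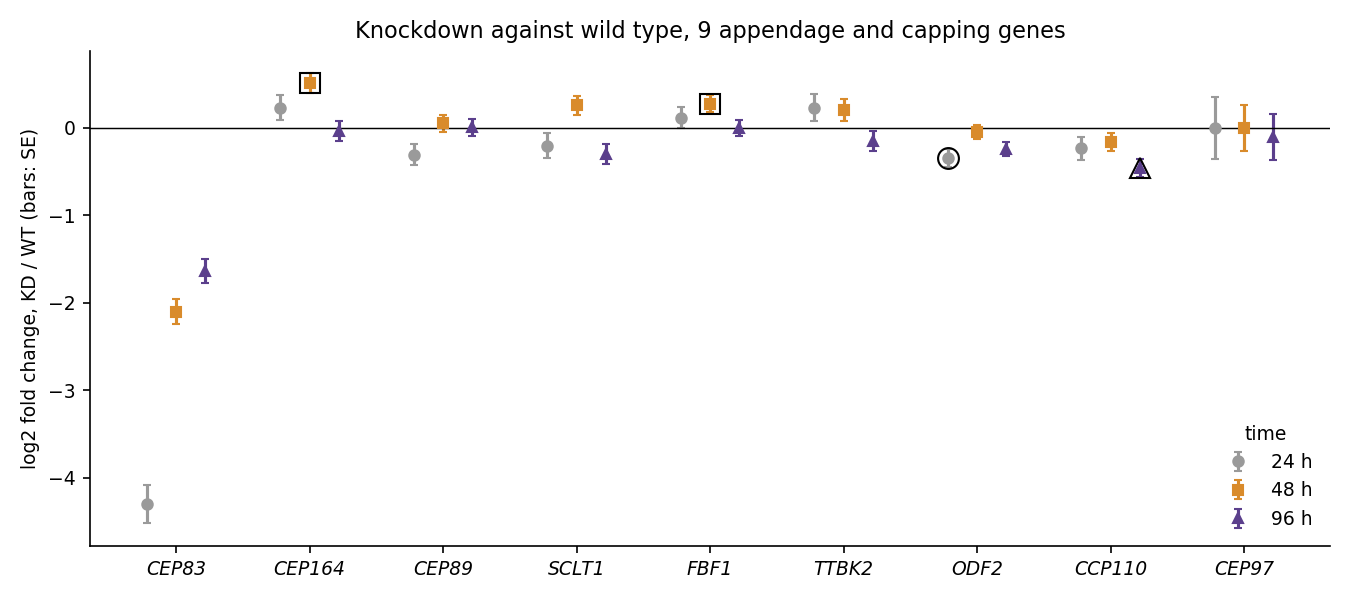
Log2 fold change of KD over WT (vertical axis) for the 9 genes at 24 h (grey circles), 48 h (orange squares) and 96 h (purple triangles), with SE bars from edgeR. A black outline marks an adjusted p under 0.05 (ODF2 at 24 h, CEP164 and FBF1 at 48 h, CCP110 at 96 h), and CEP83, at -4.30, -2.10 and -1.64, was not tested.

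CEP164, the outermost appendage protein and the one that recruits TTBK2, rose at 48 h. It was at 41.63, 38.68 and 30.94 CPM in KD, against 23.49, 29.83 and 24.93 CPM in WT, so that every KD library was above every WT library, KD replicate 3 least clearly. The log2 fold change was 0.51 (SE 0.112, adjusted p = 0.00157, edgeR quasi-likelihood test with Benjamini-Hochberg adjustment, as for every adjusted p at the gene level below). It was at 23.98 and 30.24 CPM in the libraries labelled knockdown at 24 h, against 23.57 and 22.82 CPM in WT, and at 21.13, 20.52 and 22.24 CPM in KD at 96 h, against 20.66, 20.96 and 24.06 CPM in WT. Neither difference passed (log2 fold changes 0.23 and -0.04).

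FBF1, which sits between the appendage blades at the membrane, also rose at 48 h. It was at 19.57, 19.45 and 16.09 CPM in KD, against 15.72, 15.52 and 14.43 CPM in WT, without overlap but with replicate 3 of KD close to WT. The log2 fold change was 0.27 (SE 0.0958, adjusted p = 0.0336). Without KD replicate 3, the library that stood apart, it was 0.36 (adjusted p = 0.00318), and 3 of the 8 genes rose at 48 h. Of the other genes of the pathway (below), 24 rose at 48 h in that fit, against 21 with all libraries. The FBF1 call was lost without KD replicate 1 (adjusted p = 0.125) or 2 (0.106) or without any 1 of the 3 WT libraries (0.0565 to 0.110). At 24 h FBF1 was at 18.07 and 22.46 CPM in the libraries labelled knockdown, against 18.67 and 18.83 CPM in WT, and at 96 h at 14.26, 14.09 and 14.19 CPM in KD, against 14.92, 13.59 and 14.20 CPM in WT, with overlap at both times.

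Part of what was counted for CEP164 and FBF1 at 48 h came from noncoding transcripts. CEP164-201, a coding transcript, was at 17.9, 22.5 and 11.0 CPM in KD, against 13.1, 15.9 and 9.91 CPM in WT, and the groups overlap. CEP164-210, annotated as a retained intron, was at 6.28, 6.19 and 4.24 CPM in KD, against 3.44, 3.24 and 3.35 CPM in WT, without overlap. With coding transcripts alone, the CEP164 change had a log2 fold change of 0.63 and missed the threshold (adjusted p = 0.0552), and FBF1 missed it as well (adjusted p = 0.138). The most counted FBF1 transcript, FBF1-202, is a retained intron too, at 9.33, 7.41 and 7.77 CPM in KD, against 8.60, 6.27 and 6.20 CPM in WT.

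The share of all counts in retained-intron transcripts was higher in both libraries labelled knockdown at 24 h, and in 2 of 3 KD libraries at 48 h, than in any WT library of the same time. At 48 h it was 5.73, 5.29 and 4.18% in KD, against 4.05, 4.26 and 4.22% in WT, and the same KD libraries had 12.3, 13.8 and 12.9% mitochondrial counts, against 10.8, 10.4 and 11.2% in WT. At 24 h the retained-intron share was 5.58 and 6.04% in the libraries labelled knockdown, against 5.17 and 4.93% in WT. At 96 h it was 4.50, 4.64 and 4.87% in KD, against 4.54, 4.46 and 4.62% in WT. The part of these shares in the CEP164 and FBF1 changes was not tested.

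SCLT1 and CEP89, which CEP83 recruits, did not pass at any time with all libraries. SCLT1 was at 11.31 and 11.10 CPM in the libraries labelled knockdown at 24 h, against 12.61 and 13.24 CPM in WT, at 15.65, 18.21 and 15.41 CPM in KD at 48 h, against 12.66, 13.33 and 15.36 CPM in WT, and at 9.22, 8.01 and 7.27 CPM in KD at 96 h, against 9.37, 11.37 and 9.42 CPM in WT. The groups did not overlap at any time, yet KD was below WT at 24 and 96 h and above it at 48 h, with log2 fold changes of -0.21, 0.25 and -0.30 (adjusted p = 0.376, 0.0833 and 0.104). SCLT1 passed at 48 h without KD replicate 3 (0.30, adjusted p = 0.0421) or WT replicate 3 (0.34, 0.0436), and with scaling by total counts (0.39, 0.0121) or upper quartile (0.37, 0.0154). At 96 h it passed without KD replicate 1 (-0.40, adjusted p = 0.0489). The test of a difference between these 3 effects gave an adjusted p of 0.0542.

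CEP89 was at 21.28 and 19.04 CPM in the libraries labelled knockdown at 24 h, against 26.54 and 23.52 CPM in WT. The groups did not overlap there, with a log2 fold change of -0.31 (SE 0.120, adjusted p = 0.0793). It was at 20.83, 20.74 and 17.05 CPM in KD at 48 h, against 16.90, 20.63 and 19.06 CPM in WT, and at 16.65, 18.09 and 17.59 CPM in KD at 96 h, against 18.45, 16.35 and 17.42 CPM in WT. At both later times the groups overlap and the log2 fold changes were 0.05 and 0.00.

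TTBK2, the kinase that starts cilium assembly, was at 6.32 and 6.60 CPM in the libraries labelled knockdown at 24 h, against 5.08 and 5.96 CPM in WT. It was at 6.38, 6.73 and 6.45 CPM in KD at 48 h, against 5.92, 5.14 and 5.99 CPM in WT. KD was above WT without overlap at both times, but neither difference passed (log2 fold changes 0.23 and 0.20, adjusted p = 0.367 and 0.210). At 96 h it was at 8.17, 7.96 and 6.40 CPM in KD, against 8.24, 7.87 and 8.96 CPM in WT, and the groups overlap.

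ODF2, also known as cenexin, fell at 24 h. It was at 69.77 and 65.83 CPM in the libraries labelled knockdown, against 86.47 and 85.94 CPM in WT, with a log2 fold change of -0.35 (SE 0.10, adjusted p = 0.0192). This call was lost under scaling by total counts (log2 fold change -0.14, adjusted p = 0.393) and without any 1 of the 4 libraries of that time (adjusted p between 0.0611 and 0.297). At 48 h ODF2 was at 82.77, 70.83 and 88.37 CPM in KD, against 80.82, 90.69 and 78.88 CPM in WT, and the groups overlap. At 96 h it was at 64.51, 66.45 and 64.76 CPM in KD, against 80.17, 71.28 and 80.94 CPM in WT, without overlap, and the difference fell just short of the threshold (log2 fold change -0.25, SE 0.0814, adjusted p = 0.0567).

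CCP110, the cap protein, fell at 96 h. It was at 11.25, 9.69 and 8.57 CPM in KD, against 12.52, 14.61 and 13.60 CPM in WT, all KD libraries below all WT libraries. The log2 fold change was -0.46 (SE 0.107, adjusted p = 0.00586), and without KD replicate 3, the lowest, it was -0.37 (adjusted p = 0.0563). CCP110 was at 11.63 and 11.00 CPM in the libraries labelled knockdown at 24 h, against 12.76 and 13.90 CPM in WT, and at 17.74, 14.80 and 17.25 CPM in KD at 48 h, against 18.24, 17.63 and 19.86 CPM in WT. KD was on the lower side at these times too, with overlap at 48 h, and neither difference passed (log2 fold changes -0.24 and -0.16).

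CEP97, its partner in the cap, had few counts and varied widely between replicates. It was at 3.21 and 2.94 CPM in the libraries labelled knockdown at 24 h, against 3.80 and 2.38 CPM in WT. It was at 5.78, 7.56 and 5.72 CPM in KD at 48 h, against 6.59, 9.11 and 3.48 CPM in WT, and at 4.06, 4.58 and 3.55 CPM in KD at 96 h, against 4.76, 3.85 and 4.54 CPM in WT. The groups overlap at all 3 times, and the SE of the log2 fold change, 0.259 to 0.351, leaves room for changes as large as that of CCP110.

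Whether the knockdown effect differed between the 3 times was tested for the 8 genes with edgeR, and 0 passed, where 9.44% of all genes did. CEP164 and SCLT1 had an unadjusted p under 0.05, and adjusted p of 0.0759 and 0.0542. Without KD replicate 3 at 48 h, the library that stood apart, 3 of the 8 passed. The number of all genes that passed was also at its highest without that library (given at the end), so this is not particular to the 8 genes.

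**Figure D4:**
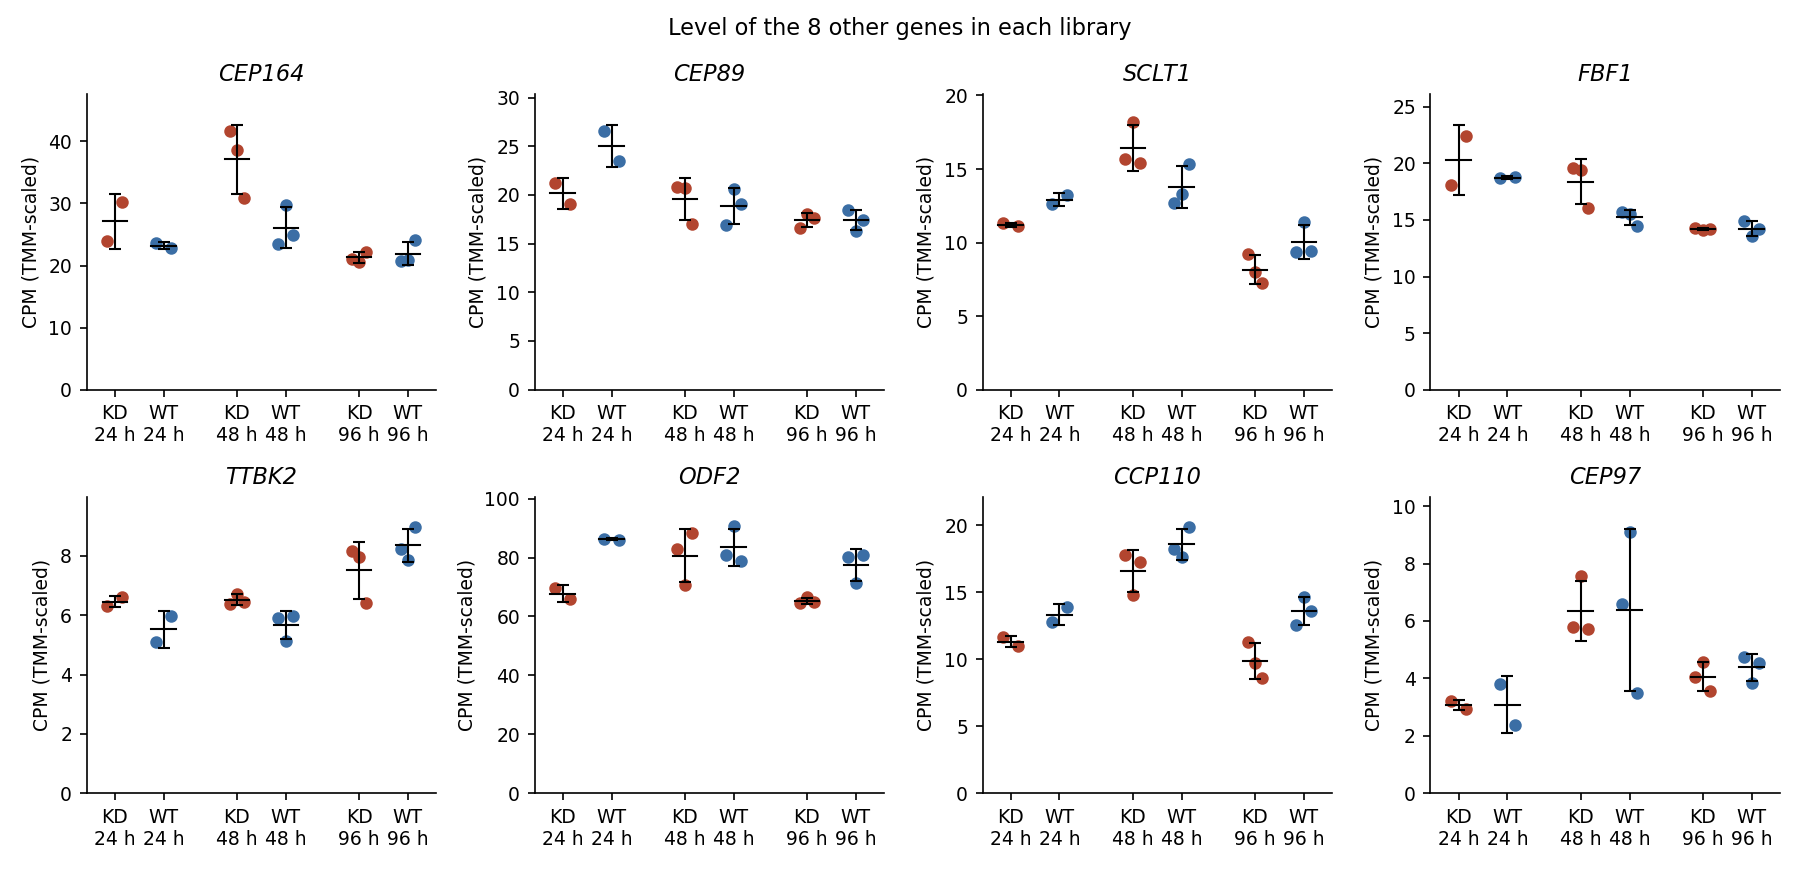
CPM (TMM-scaled) of the 8 genes other than CEP83 in each library, with KD (red) left of WT (blue) at each time. Lines and bars are means ± SD, 2 libraries per group at 24 h and 3 at 48 and 96 h: CEP164 at 48 h lies at 30.94 to 41.63 CPM in KD and 23.49 to 29.83 CPM in WT, and CCP110 at 96 h at 8.57 to 11.25 CPM in KD and 12.52 to 14.61 CPM in WT.

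At the level of single transcripts, 54 transcripts of the 8 genes were tested, and 0 passed at 24 h, 2 at 48 h and 0 at 96 h (edgeR, unadjusted p under 0.05 for 2, 6 and 4 of them). Both fell. Of all transcripts tested, 1.01%, 3.11% and 0.302% fell and 0.375%, 1.55% and 0.224% rose at 24, 48 and 96 h. ODF2-210 held 0, 0 and 1 estimated counts in KD at 48 h, against 19, 90 and 60 in WT (adjusted p = 0.000565), while the test of the gene as a whole gave an adjusted p of 0.665. CEP89-208 held 0, 0 and 0 in KD, against 7, 13 and 16 in WT (adjusted p = 0.0316), which is at least 13.6-fold lower when the floor is set at 3 counts over the KD group. The CEP89-208 call was lost without KD replicate 1 or 2 or any 1 WT library of 48 h, either library labelled knockdown at 24 h, or WT replicate 1 or 3 at 96 h (adjusted p = 0.0504 to 0.0907). In the test of transcript usage by limma, 0 of 19 transcripts of 7 genes passed at each time, with an unadjusted p under 0.05 for 0, 0 and 1 of them, where 0.245%, 0.149% and 0.0339% of all transcripts passed.

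The genes also moved with time in WT cells. At 48 h against 24 h, 2 of the 9 rose and 2 fell, beside 22.5% and 22.1% of all genes. CCP110 rose (log2 change 0.48, SE 0.121, adjusted p = 0.00272) and so did CEP97 (1.05, SE 0.318, adjusted p = 0.0138), while CEP89 fell (-0.41, SE 0.109, adjusted p = 0.00429) and FBF1 fell (-0.30, SE 0.108, adjusted p = 0.0278). The CEP97 call was lost without WT replicate 2 at 24 h (adjusted p = 0.15) and that of CEP89 without WT replicate 1 at 24 h (0.0976). That of FBF1 was lost without WT replicate 1 (adjusted p = 0.113) or 2 (0.123) at 24 h or WT replicate 3 at 48 h (0.0878).

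At 96 h against 48 h in WT, 1 of the 9 rose and 2 fell, beside 23.7% and 22.7% of all genes. TTBK2 rose (log2 change 0.56, SE 0.119, adjusted p = 0.000536), and SCLT1 (-0.45, adjusted p = 0.00199) and CCP110 (-0.45, adjusted p = 0.00114) fell. CEP97 also fell there without WT replicate 3 at 48 h (-0.84, adjusted p = 0.00121), but not with it (-0.55, adjusted p = 0.104). At 96 h against 24 h, TTBK2 rose (0.60, adjusted p = 0.00175, lost without WT replicate 1 at 24 h, adjusted p = 0.0515), and CEP89 (-0.52, adjusted p = 0.00065), FBF1 (-0.40, adjusted p = 0.00609) and SCLT1 (-0.36, adjusted p = 0.0303) fell, beside 16.2% and 19.1% of all genes. The FBF1 call was at the threshold without WT replicate 2 at 24 h (adjusted p = 0.05). That of SCLT1 was lost without KD replicate 2 at 24 h, WT replicate 1 or 2 at 24 h, WT replicate 2 at 48 h, or WT replicate 1 or 3 at 96 h (adjusted p = 0.0634 to 0.175).

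The genes whose profile was most like that of CEP83 were sought among 11052 genes with a mean of at least 5 CPM, by Pearson correlation of log2 CPM over the 16 libraries. The closest were TLX3 (r = 0.943), KCNK1 (0.933), IMPDH2 (0.928), MYH10 (0.927) and TRIT1 (0.922), in this order a homeobox gene, a potassium channel gene, a gene of guanine nucleotide synthesis, a nonmuscle myosin gene and a tRNA modification gene. All libraries share the groups and times, and CEP83 was chosen for being lower in KD in these same libraries. A high correlation therefore in part restates that a gene was lower in KD. The values of this paragraph describe the profile and carry no test. The order depended on the measure: by Spearman correlation the 5 genes ranked 47, 160, 169, 254 and 19, without the 24 h libraries 130, 90, 57, 122 and 6, and after subtracting the mean of each time 29, 19, 122, 8 and 200, so that none of them was among the first 5 by any of these. KCNK1 was at 2.24 ± 0.397 CPM in the libraries labelled knockdown and 33.2 ± 1.26 CPM in WT at 24 h (SD, n = 2 each), and at 13.4 ± 1.02 CPM in KD and 21.1 ± 1.09 CPM in WT at 96 h (SD, n = 3 each), and so shared with CEP83 its lowest level at 24 h. Of the other appendage genes, ODF2 (0.526) and CCP110 (0.413) were the most like CEP83, SCLT1, CEP89 and TTBK2 were near 0 (0.049, -0.006 and -0.024), and CEP164 (-0.320) and FBF1 (-0.498) ran against it. NORAD had r = 0.256 over all 16 libraries and 0.895 over the 12 of 48 and 96 h. These values too depended on the measure. After subtracting the mean of each time, ODF2 had 0.702, CCP110 0.641, NORAD 0.558, CEP89 0.437 and SCLT1 0.236. TTBK2 then had -0.370, FBF1 -0.425 and CEP164 -0.511, so CEP89 and TTBK2 were no longer near 0.

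The other genes of the pathway, 133 tested in 8 lists, passed in both directions at 48 h and mostly as lower at 96 h. At 24 h 4 rose and 24 fell, at 48 h 21 rose and 26 fell, and at 96 h 3 rose and 24 fell. The split at 24 and 48 h turned with the scaling: with total counts 13 rose and 3 fell at 24 h, and 37 rose and 9 fell at 48 h, and with upper quartiles 7 rose and 8 fell at 24 h, and 34 rose and 14 fell at 48 h. At 96 h 22 fell with either. The share that fell, 18.0%, 19.5% and 18.0%, stood beside 12.4%, 18.5% and 5.15% of all genes, and the share that rose, 3.01%, 15.8% and 2.26%, beside 5.14%, 14.8% and 5.35%. Leaving out KD replicate 1 or 2 or WT replicate 1 or 2 at 24 h left 6, 3, 9 or 7 that fell at that time, and leaving out WT replicate 2 at 48 h left 11. At 48 h 14 rose without KD replicate 2 or WT replicate 2 and 13 without WT replicate 1. The counts of single lists below moved with these libraries too. Their median log2 fold changes were -0.11, -0.04 and -0.13, beside -0.02, 0.06 and -0.01 over all genes.

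Of 10 other distal appendage genes tested, 1 rose and 3 fell at 24 h, 3 rose and 3 fell at 48 h, and 1 rose and 0 fell at 96 h. For this list and the next, the shares of all genes were 5.14%, 14.8% and 5.35% that rose and 12.4%, 18.5% and 5.15% that fell. CCDC92, a centriolar coiled-coil gene, rose at all 3 times (log2 fold changes 0.87, 0.70 and 0.58, adjusted p = 0.000126, 0.00056 and 0.000902). Its 48 h call was lost in a fit to the times compared alone (0.72, adjusted p = 0.0545). In WT cells CCDC92 moved more with time, by -2.84 at 48 h against 24 h and 2.50 at 96 h against 48 h. NCS1, a calcium-binding protein gene, fell at 24 h (-0.37, adjusted p = 0.0366) and 48 h (-0.55, adjusted p = 0.000193), and so did FAM92A (-0.34, adjusted p = 0.0181, and -0.34, adjusted p = 0.0019). Both 24 h calls were lost without any 1 of the 4 libraries of that time or WT replicate 2 at 48 h (adjusted p = 0.0979 to 0.281 for NCS1 and 0.0582 to 0.184 for FAM92A) and with scaling by total counts, and those of FAM92A also with coding transcripts alone. Of 14 subdistal appendage genes, the lower tier, 0 rose and 2 fell at 24 h, 3 rose and 0 fell at 48 h, and 0 rose and 1 fell at 96 h. CEP128, on which that tier depends, fell at 24 h (-0.63, adjusted p = 0.00168) and 96 h (-0.92, adjusted p = 8.62e-06), the first not without KD replicate 2 (adjusted p = 0.0818).

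The 25 genes of centriole duplication and length gave 0 that rose and 8 that fell at 24 h. At 48 h 5 rose and 3 fell, and at 96 h 0 rose and 12 fell. Of all genes 5.14%, 14.8% and 5.35% rose and 12.4%, 18.5% and 5.15% fell at 24, 48 and 96 h. At 96 h all 25 log2 fold changes of the list were below 0, with a median of -0.31, beside -0.01 over all genes. With scaling by total counts, 0 of the 25 fell at 24 h. The count at 24 h was 0 without KD replicate 1 of that time, 2 without KD replicate 2 or WT replicate 1, 1 without WT replicate 2, and 3 without WT replicate 2 at 48 h. PLK4, the kinase that starts duplication, was at 10.6, 10.8 and 9.12 CPM in KD at 96 h, against 15.5, 21.5 and 18.2 CPM in WT (log2 fold change -0.85, adjusted p = 7.8e-05). STIL (-0.74) and SASS6 (-0.69), which build the cartwheel of the new centriole, fell at 96 h as well (adjusted p = 3.71e-05 and 0.00106). The count at 96 h was 6 without KD replicate 3 or WT replicate 3 of that time and 7 without KD replicate 2 or WT replicate 1.

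Of 13 genes of capping and the brakes on cilium formation, 0 rose and 3 fell at 24 h, 2 rose and 2 fell at 48 h, and 0 rose and 5 fell at 96 h. The members that fell are mitotic kinase genes in the main: PLK1 was at 81.1, 85.9 and 80.6 CPM in KD at 96 h, against 153.6, 141.5 and 142.0 CPM in WT (log2 fold change -0.82, adjusted p = 2.52e-06), and AURKA (-0.91, adjusted p = 2.6e-06) and NEK2 (-0.71, adjusted p = 2.49e-05) fell with it. MPHOSPH9, which recruits the CCP110-CEP97 cap, fell at 96 h (-0.82, adjusted p = 2.92e-06). Of 19 genes of TTBK2 and cilium initiation, 1 rose and 1 fell at 24 h, 4 rose and 2 fell at 48 h, and 1 rose and 1 fell at 96 h. Both lists stand beside 5.14%, 14.8% and 5.35% of all genes that rose and 12.4%, 18.5% and 5.15% that fell. MARK4, a kinase gene of the first steps of cilium formation, rose at all 3 times (0.33, 0.47 and 0.32, adjusted p = 0.0479, 0.000573 and 0.0277). Its 24 h call was lost without any 1 of the 4 libraries of that time (adjusted p = 0.0923 to 0.284), replicate 1 of KD or WT at 48 h, or any library of 96 h but WT replicate 2 (0.051 to 0.0625). Its 96 h call was lost without KD replicate 2 or 3 or WT replicate 2 or 3 (0.0619 to 0.18).

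Outside the centriole's distal end, 23 genes of intraflagellar transport gave 2 that rose and 2 that fell at 24 h. At 48 h 4 rose and 5 fell, and at 96 h 1 rose and 0 fell. Of 19 transition zone genes 0 rose and 3 fell at 24 h, 1 rose and 7 fell at 48 h, and at 96 h 0 passed in edgeR. At 24 h 0 fell without KD replicate 2 or WT replicate 1 of that time and 1 without KD replicate 1. At 48 h 4 fell without WT replicate 3, and 3 rose and 3 fell with scaling by total counts. TMEM107 fell at 24 h (-0.75, adjusted p = 0.00159, lost without KD replicate 2, 0.0683, or WT replicate 1, 0.0783) and TMEM231 at 48 h (-0.64, adjusted p = 0.000705). Of 18 genes of the pericentriolar material and its satellites, 0 rose and 2 fell, 1 rose and 4 fell, and 0 rose and 5 fell at 24, 48 and 96 h. For these lists too, 5.14%, 14.8% and 5.35% of all genes rose and 12.4%, 18.5% and 5.15% fell. CEP55, the abscission factor, fell at each time (-0.52, -0.47 and -0.86, adjusted p = 0.00389, 0.000664 and 6e-06), although at 24 h the call was lost without KD replicate 1 or 2 or WT replicate 2 (adjusted p = 0.0505 to 0.0666).

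**Figure D5:**
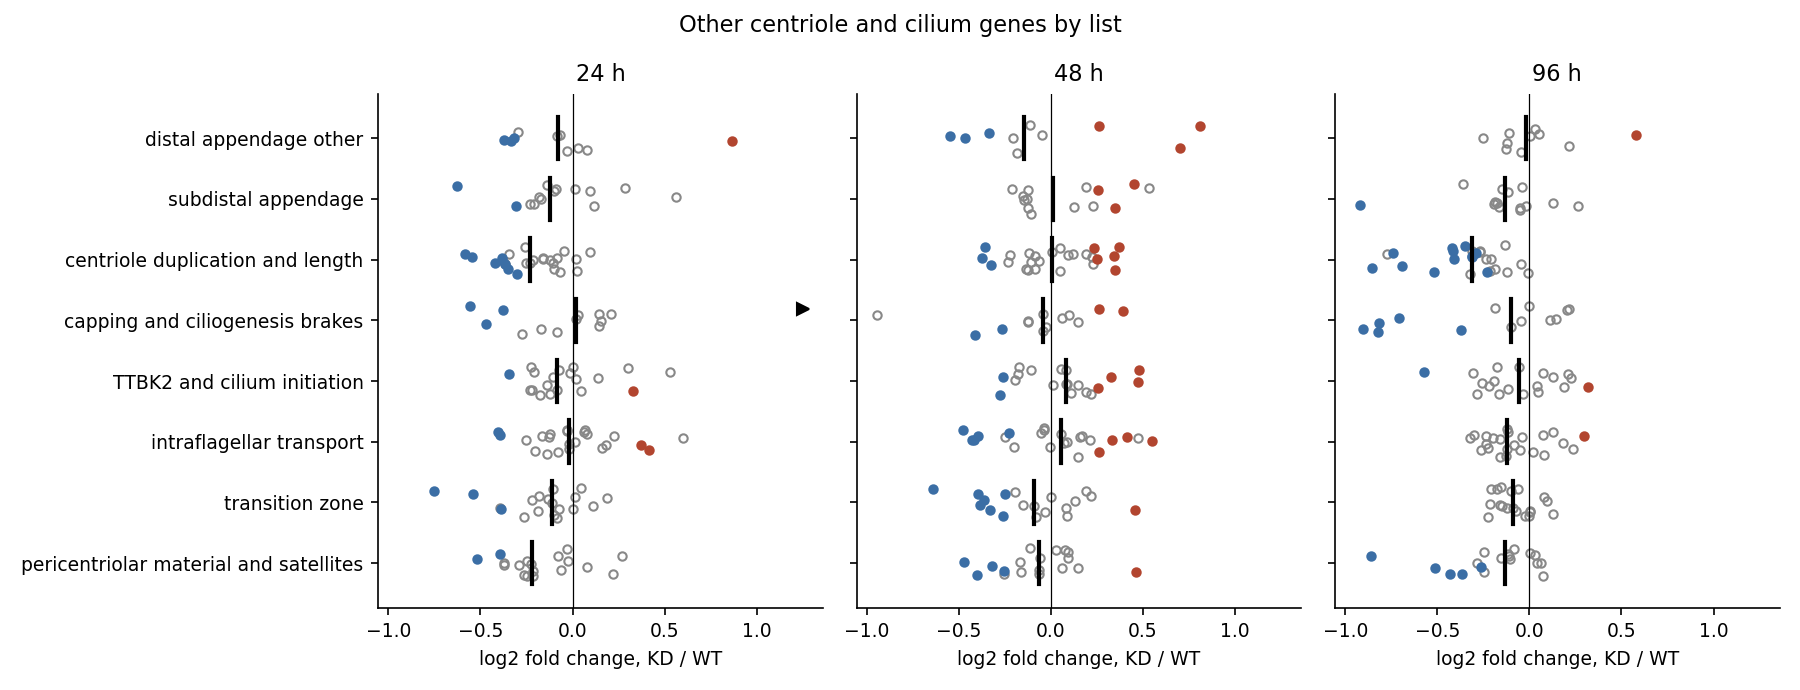
Log2 fold change of KD over WT (horizontal axis) for 133 other centriole and cilium genes in 8 lists, at 24, 48 and 96 h from left to right. Each point is a gene, filled red where it rose, filled blue where it fell (edgeR, adjusted p under 0.05) and open grey where it did not pass, a black bar is the list's median, and the black triangle at 24 h marks KIF24, not passed, beyond the axis: at 96 h all 25 duplication genes lie below 0.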

How the data were processed

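RNA of 16 HCT116 libraries was analysed from 1 table of estimated counts per transcript, deposited by the authors. Of tools and builds, the submitters' processing notes give kallisto, DESeq2 and hg19 with no version. Their settings, and whether counting used the strand, are not stated in any source used here. All 18 values of 7 or more digits in the table end in 0. Libraries were grouped by the labels' genotype and time, and no per-sample column was set aside (0 not used).

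Of 166096 transcripts, 156584 matched GENCODE 29 and were summed to 31496 genes, and 9512 did not match and stayed out of library sizes (2.75 to 3.40% of counts). Counts were rounded and tested with edgeR 4.0.16 in R 4.3.3: filterByExpr over the 6 groups, TMM, robust quasi-likelihood fit over all groups (10 residual degrees of freedom), Benjamini-Hochberg adjustment over 19836 genes, threshold 0.05. Transcripts were tested in the same way, and their usage with limma 3.58.1 on log2 ratios to the rest of the gene (0.5 counts added, transcripts with at least 10% of their gene). Both were checked on simulated counts. Coordinates are those of GENCODE 29 and of RefSeq GRCh38.p14, not of the build in the notes. TPM used annotated lengths. Intervals are exact and, like the floor of 3 counts, cover counting error only at 95%. Replicates of 1 group differed by more than sampling noise.

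The members and lists were chosen with earlier results of these data known. The genes named are the 9 members, NORAD, genes within 500 kb of CEP83, the 5 genes with the profile most like CEP83, and, of each list, members among the 4 with the lowest p in a comparison. Of 139 symbols in the lists, 4 (KIZ, CEP20, TUBGCP5 and CEP215) had no match. Fibroblast markers summed to 44.3 to 80.6 CPM in KD and 34.1 to 70.9 CPM in WT, mostly COL1A1, neuronal markers to 34.8 to 58.1 CPM in KD and 21.0 to 38.4 CPM in WT, mostly SYT1, and endothelial markers to at most 3.74 CPM. Alternatives were other scalings and filters, DESeq2 1.42.0, fits to the times compared, coding transcripts alone, a replicate block and leaving out each library.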

Additional observations from a re-analysis of the deposited data

Results flagged for a closer look

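For 16 genes of the lists and for NORAD, the knockdown effect differed between the 3 times. The test was edgeR's quasi-likelihood F test with Benjamini-Hochberg adjustment over all genes, in which 9.44% of genes passed. The 16 come from the list members with the lowest p in a comparison, and all 16 had passed in a comparison of KD with WT. They are not a count over the full lists, so their number cannot be set beside that share. Values are log2 fold changes of KD over WT at 24, 48 and 96 h. NORAD had 0.14, -2.88 and -1.33 (adjusted p = 8.28e-10).

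A first set had its most negative value at 96 h. These were MPHOSPH9 with -0.08, -0.04 and -0.82 (adjusted p = 0.000676), CEP128 with -0.63, -0.11 and -0.92 (0.00372), NEK2 with -0.38, -0.04 and -0.71 (0.00673), PCNT with -0.21, 0.09 and -0.51 (0.00756), PLK1 with -0.47, -0.26 and -0.82 (0.0143), STIL with -0.34, -0.13 and -0.74 (0.0179), CDK5RAP2 with -0.21, 0.06 and -0.37 (0.0494) and CNTROB, which rose at 48 h, with -0.11, 0.25 and -0.23 (0.00872).

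A second set rose at 48 h and did not pass at 24 or 96 h. It held RAB3IP with 0.02, 0.48 and -0.12 (adjusted p = 0.0271), AKAP9 with -0.08, 0.46 and 0.00 (0.0300), TTC21B with -0.02, 0.41 and -0.12 (0.0360), KIF3A with -0.23, 0.26 and -0.16 (0.0375) and CNTRL with -0.10, 0.35 and -0.15 (0.0441). The last set was lowest earlier: TMEM107 with -0.75, 0.13 and -0.10 (adjusted p = 0.0171), IFT57 with -0.40, -0.42 and 0.02 (0.0300) and TMEM231 with -0.40, -0.64 and 0.08 (0.0321). These groupings were made after the values were seen, and their traits overlap. RAB3IP, TTC21B and CNTRL of the second set also had their most negative value at 96 h, and CNTROB of the first rose at 48 h.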

How the results depend on the processing

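The CEP83 difference kept its direction at all 3 times under every alternative run. CEP83 was chosen for this fall in the same libraries, so this is no independent support. Of the 8 other genes, 1 fell at 24 h and 0 did with total-count or upper-quartile scaling, no filter on low counts or a replicate block. At 48 h 2 rose, and 4 did with total-count or upper-quartile scaling, 1 with no filter, a fit to the times compared or a replicate block, and 0 with coding transcripts alone. At 96 h 1 fell, and 2 did with upper-quartile scaling, DESeq2, a filter of 1 CPM in 2 libraries, a fit to the times compared or coding transcripts alone. Between times 0 passed, and 1 did with total-count or upper-quartile scaling or the 1 CPM filter. Of all genes, 6591 passed at 48 h and 2083 at 96 h, against 4072 and 3450 in a fit to the times compared. In WT at 48 h against 24 h 2 fell, and 1 did with no filter, a fit to the times compared, coding transcripts alone or a replicate block. In WT at 96 h against 24 h 1 rose, and 2 did in a fit to the times compared. The usage test passed 1 transcript at 48 h with a minimum of 2% of the gene or with diffSpliceDGE, and with 2% it passed 4, 2 and 1 in WT (48 against 24 h, 96 against 48 h, 96 against 24 h), against 1, 0 and 0 before and 1 with diffSpliceDGE for 96 against 48 h. OFD1 at 48 h was 0.26 with all transcripts and -0.006 with coding ones alone. Total-count scaling moved the median of all genes to 0.19 at 24 h and 0.20 at 48 h, and upper-quartile scaling to 0.18 at 48 h. Of the calls, 53.7% at 24 h and 64.3% at 48 h rose with upper-quartile scaling, and 39.4% and 43.2% at 24 h with no filter and with a fit to the times compared. NORAD at 24 h passed, as higher, only with total-count scaling. The cause of these differences was not tested.

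With 1 library left out, the genes that passed ranged from 1500 to 4558 at 24 h, 1239 to 3069 at 96 h, 1052 to 5035 between times and 4490 to 8276 in WT at 96 h against 24 h, and the highest count came without KD replicate 3 at 48 h in each. Of the 8 genes, 0 to 2 fell at 24 h, 1 to 3 rose at 48 h, 0 to 2 fell at 96 h and 0 to 3 passed between times. In WT, 1 to 2 rose and 0 to 2 fell at 48 h against 24 h, and 0 to 1 rose and 1 to 3 fell at 96 h against 24 h. Leaving out libraries in the tests of single transcripts and of usage was chosen after seeing the data. Usage calls ranged from 0 to 1 at 24 and 48 h, 0 to 2 in WT at 48 h against 24 h and 0 to 1 in the other WT comparisons.

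The groups share replicate numbers, but same-numbered samples did not deviate together (correlations -0.027 at 24 h, -0.263 to -0.096 at 48 h and -0.039 to 0.062 at 96 h), so the numbers do not pair the samples. The replicate block ended the calls of ODF2 at 24 h (adjusted p = 0.0656) and FBF1 at 48 h (0.0574), and those of NCS1 (0.0889), NDUFA12 (0.0764) and MARK4 (0.114) at 24 h, PLXNC1 (0.0541) and NDUFA12 (0.0746) at 48 h, MARK4 at 96 h (0.0837), and in WT FBF1 at 48 against 24 h (0.0659) and SCLT1 at 96 against 24 h (0.0579). With 14 and 23 counts, CEP83 transcript shares at 24 h are wide, and 2 libraries a group limit every result of that time.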
